A study of Glycine soja with 14 samples.

Results

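The SWEET and SUT1 sugar transporters of wild soybean leaf were followed through a day of bicarbonate treatment. The members were all soybean probe sets whose annotation gives a single gene symbol that starts with SWEET or is SUT1, and 13 of 37593 soybean probe sets met this rule. They stand for 9 of the 6029 genes that the annotation names on the array, of which 8 are SWEET genes with 10 probe sets and 1 is SUT1 with 3 probe sets.

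The plants were wild soybean (Glycine soja, line G07256), from which cultivated soybean was bred, grown at 12 h of light per day and 21 days old. Treated leaves came from seedlings moved for 0.5, 1, 3, 6, 12 or 24 h into diluted Hoagland's nutrient solution with 50 mM NaHCO3 at pH 8.5, an alkaline medium that also brings in sodium. Untreated leaves were taken at 0 h, and every time had 2 biological replicates, each an array of RNA pooled from the leaves of 3 plants. The labels give no untreated leaves at a later hour and no transfer to plain solution, so the treatment cannot be told apart from the move at any time, or from the time of day at times up to 12 h. The 24 h leaves were taken a full day after the start.

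SWEET proteins are membrane carriers that let sugars pass down their concentration gradient. In Arabidopsis, some of them release sucrose from leaf cells into the cell wall space next to the phloem, and others act at the vacuole or in flowers and seeds. SUT1 belongs to the sucrose transporters that take sucrose up together with protons, and such carriers load the phloem in many plants, so the proton gradient across the plasma membrane drives their work. The soybean SWEET numbers do not carry over to the Arabidopsis genes of the same number, and the roles of the single soybean members are not assumed here.

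Values are scaled intensities, that is, the brightness of a probe set after each array was brought to a common soybean median of 56.4. Background was set for each array at the 95th percentile of 23350 probe sets for a water mould and a nematode on the same array, and it lay near the dashed lines of the plots. By that measure 5 of the 13 transporter probe sets were above background on all 14 arrays, 7 on some and 1 on none. The array was designed on cultivated soybean sequence. No level of a probe set is set against that of another here, since probes differ in brightness. None of the members matched the reference gene table for Glycine soja, so neither position nor sequence is given. Of the 3 SUT1 probe sets, 2 carry the suffix _s_at, which marks probes that can match more than 1 transcript.

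Between the 2 arrays of each time the correlation was 0.965 to 0.985, and 66.1 to 77.2% of soybean probe sets lay above background. The least alike were the 2 untreated arrays (SD of their difference 0.439 log2), on which each comparison with 0 h rests. Their ratios of the 3' to the 5' actin control signal were 3.39 and 2.22, and those of all other arrays 1.87 to 3.29. The part of this ratio in the comparisons was not tested. All 7 leaf marker genes (Rubisco activases, a light-harvesting protein, a photosystem I subunit and a chlorophyll synthesis enzyme) were above background on all arrays. Of the markers of other tissues, 2 of 6 nodule and root genes (PRP2 and NOD33) and 3 of 12 seed genes (the trypsin inhibitors KTI-2 and KTI-3, and GBP) were also above background on all arrays. The seed storage genes GY1, GY3 and GY5 and the trypsin inhibitors KTI1 and KTI3 were above it on none.

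The set divided by gene. At 6 h, SWEET34, SWEET29 and SUT1 were lower than in untreated leaves, and both probe sets of SWEET31 were higher. At 12 h the same 5 probe sets of SWEET34, SWEET29 and SUT1 were lower, and those of SWEET31 no longer passed the test. At 24 h no member passed it. In counts, 7 of 13 probe sets differed at 6 h over 0 h, 2 higher and 5 lower, where 9.99% of all soybean probe sets did (4.16% higher and 5.84% lower), by limma with Benjamini-Hochberg adjustment at a threshold of 0.05. At 12 h over 0 h it was 5 of 13, all lower, where 24.4% of soybean probe sets differed (11.4% higher and 13% lower). By gene, 1 of 9 was higher and 3 lower at 6 h, and 3 were lower at 12 h, since SUT1 and SWEET31 have several probe sets each. No member passed at 0.5 h (2.54% of soybean probe sets did), 1 h (0%), 3 h (2.46%) or 24 h (5.21%). Over the whole course, 8 of 13 varied by limma's F test, where 30.4% of soybean probe sets did. These comparisons share the 0 h arrays, so they are not independent of each other.

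SWEET34 (GmaAffx.1401.1.S1_at) was the member with the lowest F test p (adjusted p = 7.84e-05, limma). Its scaled intensity was 34.2 and 42.9 at 6 h, against 297 and 242 at 0 h. At 0.5 h it was 299 and 365, at 1 h 240 and 269, and at 3 h 151 and 178. It stood at 97.1 and 166 at 12 h and at 361 and 298 at 24 h. The 6 h pair lay below all other arrays, and the arrays of 0, 0.5, 1 and 24 h all lay above those of 3 and 12 h. The log2 change at 6 h over 0 h was -2.38 ± 0.22 (SE, limma adjusted p = 0.000100), and it kept an adjusted p under the threshold with each array left out in turn. At 12 h the change was -0.99 ± 0.22 (adjusted p = 0.00867), and without replicate 1 of 12 h it was -0.64 (adjusted p = 0.0714), and without replicate 1 of 0 h its adjusted p was 0.0528. At 3 h, where both arrays already lay below both 0 h arrays, the change of -0.66 had an adjusted p of 0.129. At 24 h it was 0.28 (adjusted p = 0.497).

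SWEET29 (GmaAffx.37833.1.A1_at) was also lowest at 6 h. It read 3.07 and 15.2 at 6 h, against 155 and 138 at 0 h, and both 6 h arrays were below background. The intensities were 99.7 and 151 at 0.5 h, 162 and 148 at 1 h, and 66.8 and 58.1 at 3 h. They were 26.6 and 60.5 at 12 h and 182 and 127 at 24 h. The arrays of 3 h and 12 h thus sat between the 6 h pair and all others, and those of 24 h spanned the untreated pair. SWEET29 was at least 4.40-fold lower at 6 h, a bound taken against the background because the 6 h level was not measured; the fitted log2 change was -2.73 ± 0.30 (limma adjusted p = 0.000310). At 12 h it was -1.50 ± 0.30 (adjusted p = 0.00486), and at 3 h -1.05 ± 0.30 (adjusted p = 0.0892). Both calls held with each array left out, and the 12 h call was lost on the log2(value + 1) scale (adjusted p = 0.0507).

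SUT1, the proton-coupled sucrose carrier, was read by 3 probe sets. The brightest, GmaAffx.92409.1.S1_s_at, read 147 and 177 at 6 h and 228 and 112 at 12 h, against 477 and 578 at 0 h. It was 499 and 399 at 0.5 h, 685 and 532 at 1 h, 349 and 249 at 3 h, and 708 and 534 at 24 h. All 4 arrays of 6 and 12 h lay below every other array, and the groups of 6 and 12 h overlapped. The log2 change was -1.61 ± 0.29 at 6 h (limma adjusted p = 0.00564) and -1.62 ± 0.29 at 12 h (adjusted p = 0.00246).

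The probe set Gma.5861.1.S1_at, without that suffix, read 60.6 and 66.4 at 6 h, against 154 and 207 at 0 h. At 12 h it was 93.8 and 41.2, and its changes were -1.29 ± 0.30 at 6 h (limma adjusted p = 0.0209) and -1.30 ± 0.30 at 12 h (adjusted p = 0.0102). At 24 h it was 265 and 211, above both untreated arrays, with a change of 0.38 (adjusted p = 0.497). GmaAffx.14280.1.S1_s_at read 62.4 and 73.6 at 6 h and 116 and 57.7 at 12 h, against 173 and 238 at 0 h. Its changes were -1.39 ± 0.27 (adjusted p = 0.00900) at 6 h and -1.15 ± 0.27 (adjusted p = 0.0110) at 12 h. The 3 probe sets thus moved the same way at both times. They are not independent evidence, since they read the same RNA and correlated at 0.959 to 0.978 over the 14 arrays.

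Each of the SUT1 calls at 6 h was lost without at least 1 array. Without replicate 1 of 6 h, the adjusted p was 0.118 for Gma.5861.1.S1_at, 0.0724 for GmaAffx.14280.1.S1_s_at and 0.0531 for GmaAffx.92409.1.S1_s_at. Without replicate 2 of 0 h, it was 0.0997 for Gma.5861.1.S1_at and 0.0546 for GmaAffx.14280.1.S1_s_at, and without replicate 2 of 6 h it was 0.0885 for Gma.5861.1.S1_at. At 12 h the call of GmaAffx.92409.1.S1_s_at held with each array left out. The other two lost theirs without replicate 2 of 0 h (adjusted p 0.0644 and 0.0721) or without replicate 2 of 12 h (0.0805 and 0.0868).

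**Figure D1:**
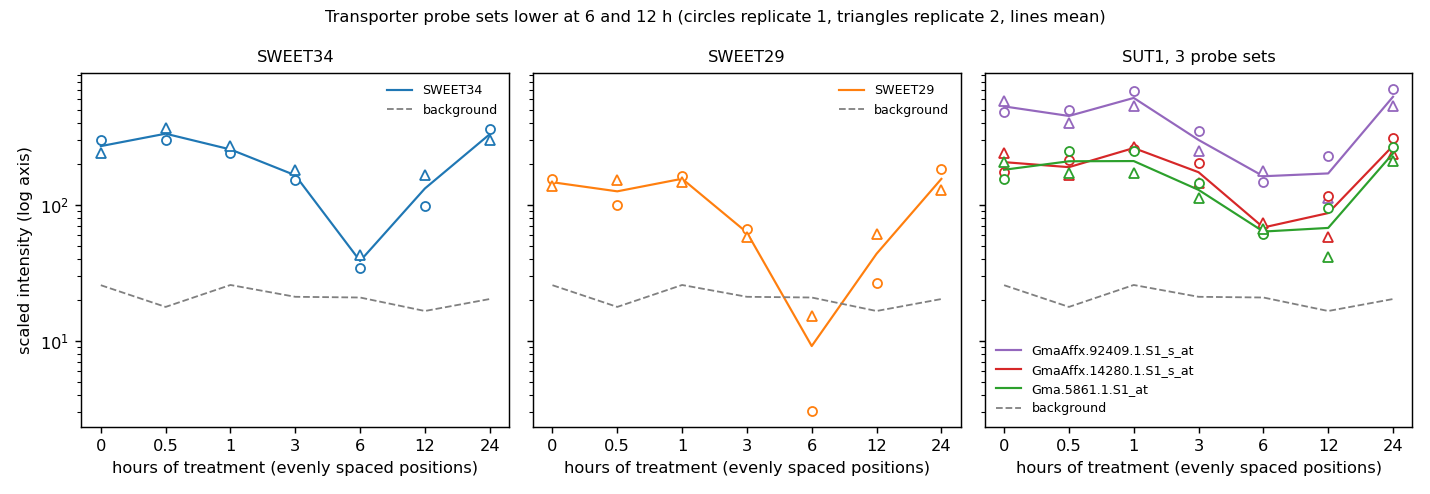
Scaled intensity (log axis) of SWEET34, SWEET29 and the 3 SUT1 probe sets at each time of treatment in hours, with circles and triangles for the 2 replicates, solid lines for their mean and a dashed line for the mean background of the time. SWEET34 and SWEET29 are lowest at 6 h, where SWEET29 falls under the dashed line, and SUT1 is low at both 6 and 12 h. All stand near their 0 h level at 24 h.

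Other measures moved during the course too, though not each of them at both 6 and 12 h. The 18S ribosomal RNA signal was 44.0 ± 26.3 at 0.5 h, 854 ± 139 at 3 h, 1962 ± 374 at 6 h and 466 ± 134 at 12 h, against 449 ± 38 at 0 h (SD, n = 2 each). Its part in the results at 6 and 12 h was not tested. The 8 sieve element genes (SEO, proteins of the phloem conduits) gave no call at 6 h (5.84% of all soybean probe sets were lower), with a median log2 change of -0.0050. At 12 h 3 of the 8 were lower, where 13% of all soybean probe sets were, with a median of -1.01 and summed intensities of 86.0 to 194 at 12 h, against 246 to 698 at 0 h. SEOP was above background on no array and SEOS on 3. Of the 7 leaf genes, 3 were lower at 6 h and 6 at 12 h, to be read against the same shares. Their sums were 33170 to 33512 at 6 h and 21414 to 24475 at 12 h, against 39709 to 40304 at 0 h. Among the markers of other tissues, KTI-3 was higher at 6 and 12 h (adjusted p 0.0241 and 0.0320), KTI-2 (adjusted p = 0.00725) and NOD33 (adjusted p = 0.0195) were higher at 12 h, and the seed storage gene GY7, above background on 2 arrays in all, was lower at 12 h (adjusted p = 0.0285). In whole leaves, fewer cells of a type and less RNA per cell cannot be told apart, and the part of these markers in the lower transporter values was not tested.

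SWEET31 went the other way. GmaAffx.76027.1.S1_at read 56.4 and 109 at 6 h, against 4.19 and 10.3 at 0 h. It was 3.22 and 3.66 at 0.5 h, 3.98 and 9.48 at 1 h, and 17.6 and 6.72 at 3 h. It was 24.4 and 3.84 at 12 h, and 11.3 and 9.87 at 24 h. Only both 6 h arrays and replicate 1 of 12 h were above background. The gene was at least 2.29-fold higher at 6 h by this probe set, with a fitted log2 change of 2.05 ± 0.34 (limma adjusted p = 0.00336).

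The other probe set of SWEET31, GmaAffx.62485.1.S1_at, read 45.7 and 62.2 at 6 h, against 4.12 and 4.81 at 0 h. It was 18.7 and 3.65 at 3 h and 17.6 and 7.18 at 12 h, and 4.22 and 4.51 at 0.5 h, 2.61 and 11.6 at 1 h, and 2.08 and 3.79 at 24 h. The same 3 arrays were above background. It was at least 1.67-fold higher at 6 h, with a log2 change of 1.76 ± 0.28 (adjusted p = 0.00243). Both calls at 6 h held with each array left out in turn. At 12 h the changes were 0.30 (adjusted p = 0.566) and 0.45 (adjusted p = 0.270), with the 2 arrays of that time on either side of background. Below background, the order of the times says nothing.

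**Figure D2:**
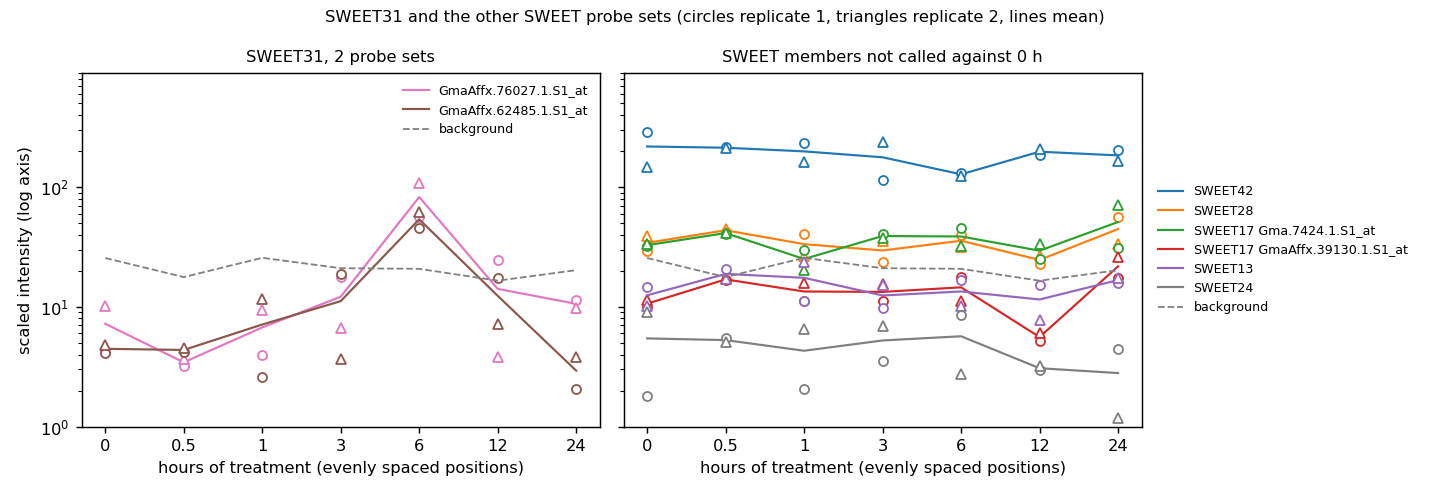
Scaled intensity (log axis) at each time of treatment in hours for the 2 probe sets of SWEET31 on the left and the 6 SWEET probe sets that no comparison with 0 h called on the right, with circles and triangles for the 2 replicates, solid lines for their mean and a dashed line for the mean background of the time. SWEET31 stands clear of background at 6 h, while SWEET42 stays between 116 and 291 and the other members stay at or under 71.4.

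The steps between consecutive times place these changes. From 3 to 6 h, 5 of 13 probe sets changed, 2 higher and 3 lower, where 4.97% of soybean probe sets did (2.03% higher and 2.94% lower). SWEET34 had a log2 change of -1.73 ± 0.22 at 6 h over 3 h (limma adjusted p = 0.00170). SWEET29 was at least 2.13-fold lower at 6 h (adjusted p = 0.0105), and the 2 SWEET31 probe sets were at least 2.57-fold and at least 1.87-fold higher (adjusted p 0.0131 and 0.0154). Of SUT1, 1 probe set passed this step, GmaAffx.14280.1.S1_s_at at -1.16 ± 0.27 (adjusted p = 0.0349). The SWEET34 step held with each array left out, and the other calls of this step were lost without at least 1 array.

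From 6 to 12 h, 4 of 13 changed, where 9.51% of soybean probe sets did (4.13% higher and 5.38% lower). SWEET34 was higher at 12 h than at 6 h by 1.40 ± 0.22 on the log2 scale (limma adjusted p = 0.00325). SWEET29 was at least 1.55-fold higher (adjusted p = 0.0287), and without replicate 1 of 6 h or replicate 2 of 12 h its adjusted p was 0.200 or 0.173. SWEET31 was lower at 12 h by both probe sets, with changes of -1.75 ± 0.34 (adjusted p = 0.00954) and -1.32 ± 0.28 (adjusted p = 0.0139). Only 1 of the 2 arrays of 12 h was above background in either probe set, so the size of these changes is uncertain. Both calls were lost without replicate 2 of 6 h, where the changes were -1.35 and -1.14. They were also lost without replicate 2 of 12 h (-1.23 and -1.05) and on the log2(value + 1) scale (limma adjusted p 0.0572 and 0.113). The 3 SUT1 probe sets differed between these times by 0.23, -0.00 and -0.01, and none passed. Whether SUT1 and the SWEET genes differ in this step was not tested.

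From 12 to 24 h, 6 of 13 were higher and none lower, where 15.1% of soybean probe sets changed (8.11% higher and 7.04% lower). The log2 change at 24 h over 12 h was 1.84 for GmaAffx.92409.1.S1_s_at (limma adjusted p = 0.00144), 1.67 for Gma.5861.1.S1_at (0.00342) and 1.53 for GmaAffx.14280.1.S1_s_at (0.00314). SWEET34 was higher by 1.26 ± 0.22 (adjusted p = 0.00294) and SWEET29 by 1.56 ± 0.30 (adjusted p = 0.00528). The steps of SUT1 and SWEET34 held with each array left out. That of SWEET29 was lost without replicate 1 of 12 h (change 1.14) or replicate 1 of 24 h (1.33). It was also lost on the log2(value + 1) scale (limma adjusted p = 0.0629). No member passed the test from 0.5 to 1 h (3.75% of soybean probe sets did) or from 1 to 3 h (2.39%). All probe sets of SWEET34, SWEET29 and SUT1 were nonetheless lower at 3 h than at 1 h, with no overlap of arrays. Their log2 changes ran from -0.57 to -1.13, the largest in SWEET29 (-1.13 ± 0.30, limma adjusted p = 0.0741). These steps therefore do not show that the fall began only after 3 h.

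At 12 h the replicates parted in opposite directions. Replicate 1 was higher than replicate 2 in the 3 SUT1 and the 2 SWEET31 probe sets, and lower in SWEET34 and SWEET29. The cause of this split was not tested.

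Ordered by level, SWEET34 was lowest at 6 h, then at 12 and 3 h, whose arrays overlapped. Next came 1 and 0 h, which overlapped too, then 24 and 0.5 h. The highest 0 h array (297) and the lowest 24 h array (298) nearly met, and neither 24 nor 0.5 h passed the test against 0 h. SWEET29 had the same 3 lowest times, with 12 and 3 h overlapping, and its other 4 times could not be ordered beyond their spread. For SUT1 the lowest times were 6 and 12 h, which overlapped in all 3 probe sets, with 3 h next. In GmaAffx.14280.1.S1_s_at the 3 h arrays overlapped those of 0.5 h and 0 h. SWEET31 was highest at 6 h, and no array of another time reached its 6 h values.

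The remaining members passed no comparison with untreated leaves. SWEET42 (GmaAffx.59050.1.S1_at) was above background on all arrays, between 116 and 291 with a median of 195. It read 131 and 125 at 6 h, against 291 and 147 at 0 h, so both 6 h arrays lay below both untreated ones, which themselves stood far apart. This was its largest difference, -0.63 ± 0.33 on the log2 scale (limma adjusted p = 0.263). SWEET28 (GmaAffx.69674.1.S1_at) read 23.0 to 56.0 and was above background on 13 arrays. SWEET13 (GmaAffx.22120.1.S1_at, 7.81 to 23.8) was above it on 2 arrays, and SWEET24 (Gma.1904.1.S1_at, 1.19 to 9.10) on none, so changes in both were hard to detect at this signal.

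The 2 probe sets of SWEET17 gave unequal accounts. Gma.7424.1.S1_at read 20.3 to 71.4 and was above background on 13 arrays, and it passed no test. GmaAffx.39130.1.S1_at read 5.20 to 26.2 and was above background on 1 array. It read 17.4 and 26.2 at 24 h, against 5.20 and 6.00 at 12 h. It passed the F test (adjusted p = 0.0474), and its log2 change at 24 h over 12 h was 0.80 ± 0.17 (limma adjusted p = 0.00758). Only replicate 2 of 24 h was above background, so the size of this change is uncertain. The call was lost without that array, where the change was 0.63.

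**Figure D3:**
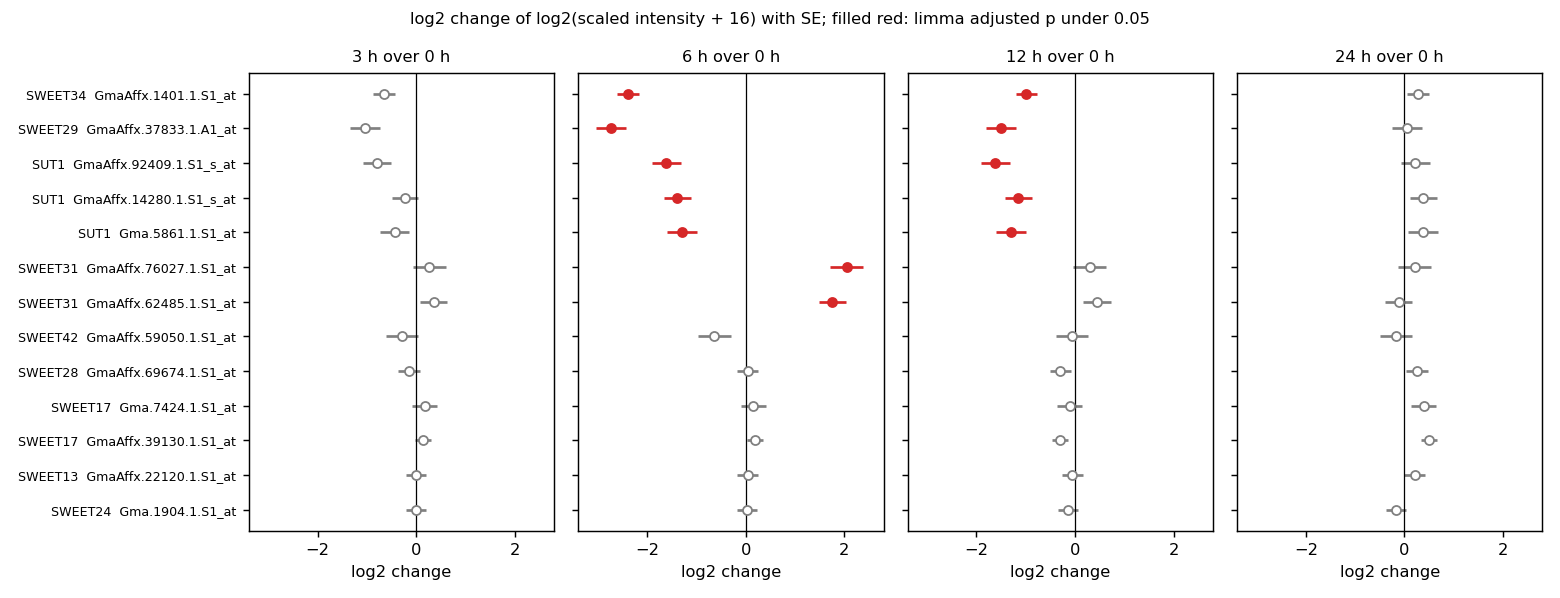
Log2 change with its SE for each of the 13 probe sets at 3, 6, 12 and 24 h over 0 h, with filled red points for limma adjusted p under 0.05. The upper 5 probe sets lie left of 0 at 6 and 12 h, the SWEET31 pair is filled at 6 h, to the right of 0, and no point is filled at 3 or 24 h.

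Among the members, SWEET29 and SWEET34 correlated at 0.965 over the 14 arrays. As a description, the most similar courses were sought among 636 named probe sets that were above background on at least 2 arrays and spanned at least 1 log2 over the time means. Arrays share the same RNA and the same times, so these values carry no test. SWEET34 was most like PHR (r = 0.953), NIP2-2, a NOD26-like channel protein (0.95), and USP1, a UDP-sugar pyrophosphorylase (0.912). It ran most opposite to EU3, a urease accessory gene (-0.909), and MMT2 (-0.89). SWEET29 was most like PHR (0.945), ALDH3J2, an aldehyde dehydrogenase (0.936), and NIP2-2 (0.932), and most opposite to OAS-TL1, an enzyme of cysteine synthesis (-0.906), and GSTL3, a glutathione transferase (-0.879). PHR averaged 15.6 at 6 h, against 122 at 0 h, and NIP2-2 averaged 9.93 at 6 h, against 70.9 at 0 h, and both 6 h means lay below the background of those arrays.

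SUT1, by GmaAffx.92409.1.S1_s_at, was most like 2 probe sets of the plasma membrane aquaporin PIP2-13 (0.958 and 0.952) and FLS1, a flavonol synthase (0.95). It was most opposite to OAS-TL1 (-0.959) and SC-04 (-0.93). The first of these PIP2-13 probe sets averaged 1054 at 6 h and 964 at 12 h, against 3053 at 0 h, the low pair of times that SUT1 had. No such list is given for SWEET31, since only 3 of its 14 arrays were above background.

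Other genes of sugar metabolism were taken by symbol as a list of 11: sucrose synthase (SS), cell wall invertase (CWINV), a sucrose binding protein (SBP2), the hexose carriers STP1 and MST1, the beta-amylase BMY2, a granule-bound starch synthase (GBSSIa), the sugar-sensing kinase SNRK1, trehalase (TRE1), a fructose bisphosphatase (FBP) and phosphoglucomutase (PGM). Each gene was counted by its brightest probe set. At 6 h over 0 h none was higher and 1 of 11 was lower, near the background of 4.16% higher and 5.84% lower over all soybean probe sets. The list median was 0.27, against -0.02 over all. At 12 h over 0 h 2 were higher and 1 lower, again not far from the background of 11.4% and 13%, with a median of 0.37, against -0.03 over all. At 0.5, 1, 3 and 24 h none passed by these probe sets. CWINV and SBP2 were above background on no array. The genes have 9 other probe sets, which did not always follow. Of these, 1 was higher and 1 lower at 0.5 h, and 1 was higher at 3 h. At 6 h 1 was higher and 3 lower, at 12 h 4 higher and 2 lower, and at 24 h 1 higher and 1 lower. Over all soybean probe sets, 2.54% differed at 0.5 h, 2.46% at 3 h and 5.21% at 24 h. Another SS probe set read 51.8 and 60.2 at 6 h, against 22.5 and 19.5 at 0 h, where both arrays were below background (limma adjusted p = 0.0179). It was also higher at 3 h (1.03 ± 0.22, adjusted p = 0.0377) and at 12 h (1.28 ± 0.22, adjusted p = 0.00169). The dimmest SS probe set, above background on 6 arrays, was higher at 12 h (0.63 ± 0.16, adjusted p = 0.0143). The brightest, which was counted, changed by 0.09 at 12 h (adjusted p = 0.827). Of the lower ones, 1 was a GBSSIa probe set that was above background on no array.

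MST1, a monosaccharide carrier, read 178 and 249 at 12 h, against 87.9 and 55.9 at 0 h, with no overlap. Its log2 change was 1.39 ± 0.27 (limma adjusted p = 0.00412), held with each array left out, and at 24 h over 12 h it was -1.19 (adjusted p = 0.0132), a call lost without replicate 2 of 12 h or either array of 24 h (adjusted p up to 0.0916). BMY2, an enzyme that breaks down starch to maltose, read 3510 and 3508 at 12 h, against 2046 and 1299 at 0 h. It was higher by 1.10 ± 0.30 (adjusted p = 0.0225), and by 1.79 at 12 h over 6 h (adjusted p = 0.00464). The other 2 BMY2 probe sets were also higher at 12 h. Of these, 1 read 426 and 272 at 6 h and 2726 and 2736 at 24 h, against 1067 and 634 at 0 h. It was lower at 6 h (-1.23 ± 0.27, limma adjusted p = 0.0169) and higher at 24 h (1.71 ± 0.27, adjusted p = 0.0122). It was also higher at 0.5 h (1.35 ± 0.27, limma adjusted p = 0.0303). Without replicate 2 of 0 h the change of the brightest at 12 h was 0.77 (adjusted p = 0.146), and it was also lost without either array of 12 h.

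FBP, an enzyme on the way from triose phosphates to sucrose and starch, read 4240 and 4318 at 6 h and 4225 and 4305 at 12 h, against 6037 and 6042 at 0 h. Its change was -0.50 ± 0.13 at both times, with adjusted p of 0.0336 and 0.0165, and at 24 h over 12 h it was 0.55 (adjusted p = 0.0150). The call at 24 h over 12 h was lost without replicate 1 of 12 h or either array of 24 h (changes 0.52 to 0.58). It was also lost when only the arrays of 12 and 24 h were fitted (limma adjusted p = 0.0624). The other probe set of FBP was lower at 6 and 12 h too, with changes of -0.67 ± 0.16 (adjusted p = 0.0204) and -1.08 ± 0.16 (adjusted p = 0.000661). The 6 h call of the brightest was lost when any 1 of 8 arrays was left out, with an adjusted p of up to 0.159, and the 12 h call when any 1 of 3 was, with one of up to 0.0698. In the 12 h leaves MST1 and BMY2 were thus high on the arrays on which SUT1, SWEET34 and SWEET29 were low.

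**Figure D4:**
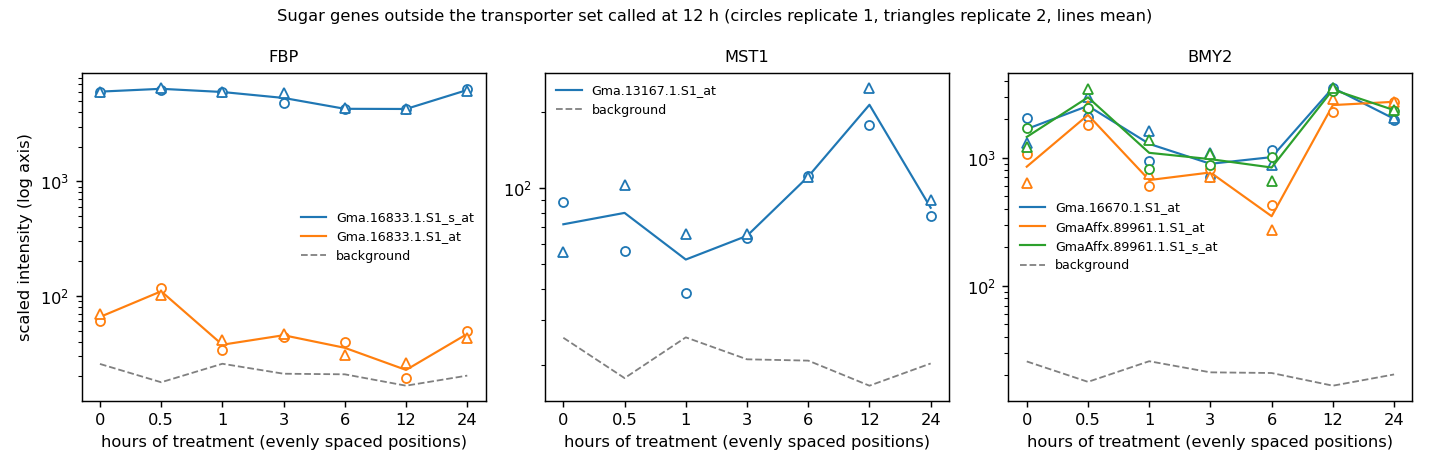
Scaled intensity (log axis, a separate scale in each panel) of FBP, MST1 and BMY2 at each time of treatment in hours, with every probe set of the gene, circles and triangles for the 2 replicates, solid lines for their mean and a dashed line for the mean background of the time. MST1 and all probe sets of BMY2 are highest or near their highest at 12 h, and both probe sets of FBP are lower at 12 h than at 0 h.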

How the data were processed

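Each array measured total RNA of 1 leaf pool, labelled with biotin and hybridised to the 1-colour Affymetrix soybean array, per the labels' protocols. The deposited table holds 1 linear intensity per probe set and array (61170 probe sets). Which software and normalization made these intensities is not given in the sources used here. Each array was scaled to the common soybean median and values were taken as log2(value + 16), so that changes of dim genes come out too small. Probe sets of the other organisms set the background and, with 227 control probe sets, stayed out of the tests.

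The 7 group means were fitted to all 14 arrays with limma 3.58.1 (lmFit, eBayes) in R 4.3.3, with 7 residual and 4.24 prior degrees of freedom. Tests were two-sided, adjusted by Benjamini-Hochberg over 37593 soybean probe sets per contrast. A fold is printed as a lower bound where one group was below background on all its arrays and the other above it on all. The bound is taken against the higher of background and own signal. The number of arrays limits the precision, with a median SE of 0.19 log2. The script was tested on simulated data.

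The members and lists were chosen with earlier results of these data known. All members were named, and the 3 most like and the 2 most opposite probe sets were sought for 4 genes, those of lowest F test p when each is taken by its brightest probe set. SWEET31 was then left out, as most of its arrays were below background. Sugar genes were found by symbol, 6 matches with another meaning were left out, and each gene stands for its brightest probe set. The sieve element list was written after the annotation was seen. Gene symbols come from the array's public annotation, in which 8677 soybean probe sets have 1 symbol, 370 several and 28546 none. The sample titles do not say whether replicate numbers pair samples, and the main fit used no pairing. Deviations of same-numbered arrays correlated at -0.219 to 0.226 over 21 pairs of times, and 4 were over 0.1. These values cannot show that pairing is absent. Alternatives were another scale, normalization, filter or threshold, only the groups compared, a replicate block, and each array left out. Fits without the 0.5 h or the 12 h arrays were chosen after seeing the data.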

Additional observations from a re-analysis of the deposited data

How the results depend on the processing

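The counts of transporter probe sets called were recomputed under 11 settings other than leaving out an array, and 117 of 126 counts lay within 1.5 times the reported one. The other 9 were as follows. At 6 h over 3 h the count of 5 became 2 on the log2(value + 1) scale, 2 with only the groups compared and 1 at a threshold of 0.01. Over all soybean probe sets, the 1868 calls of this step became 1158, 682 and 554. At 12 h over 0 h the count of 5 became 2 with only the groups compared and 3 at a threshold of 0.01. Over all, 9171 became 3642 and 4455. At 12 h over 6 h the count of 4 became 2 with only the groups compared and 2 at a threshold of 0.01. Over all, 3575 became 1919 and 1143. At 3 h over 1 h the count of 0 became 1 on the log2(value + 64) scale (SWEET29) and 1 without the 12 h arrays (SUT1). Over all, 897 became 1409 and 918. The replicate block moved no count beyond 1.5 times, and whether the numbers pair the samples is not known.

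With each of the 14 arrays left out in turn, the count was 4 to 7 at 6 h over 0 h (lowest without replicate 1 of 6 h) and 3 to 5 at 12 h over 0 h (lowest without replicate 2 of 0 h or of 12 h). It was 0 to 1 at 3 h over 1 h, 2 to 5 at 6 h over 3 h (lowest without replicate 2 of 6 h), 1 to 4 at 12 h over 6 h (lowest without replicate 2 of 12 h), 5 to 6 at 24 h over 12 h and 6 to 8 by the F test. Of 27 called single changes, 12 held without each array and 15 were lost without at least 1, and none turned its direction under any setting. In the fits named above as lowest, fewer of all soybean probe sets passed too in the same comparison, so the lower counts are not particular to the transporters. Values at or under background, as in SWEET13, SWEET24 and most arrays of SWEET31, have no order.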
